A study of Mus musculus with 24 samples.

Results

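Pituitary transcripts were measured in 6 male mice deficient for Cga and in 6 wild-type male littermates, 12 of the 24 samples of the series. The male samples were taken as all those whose labels give the sex as M, 6 of each genotype, and nothing measured entered that choice. All animals were 8 weeks old and of a mixed C57Bl6j 129S2SvPas strain. The other 12 samples were the corresponding females, 6 mutant and 6 wild type, used here to estimate the spread and to test whether the male difference differed from the female one. One Illumina expression array was run per sample. The deficiency is present in every cell of the animal, not in the pituitary alone, and the labels tie no sample to a litter. The p-values therefore measure the spread between these samples, which are taken as separate animals.

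Cga encodes the alpha subunit that pairs with a specific beta subunit to form thyrotropin, luteinizing hormone and follicle-stimulating hormone. These hormones drive the thyroid and the gonads, whose products feed back on the pituitary, so mice without Cga are hypothyroid and hypogonadal and their thyrotropes, the thyrotropin cells, enlarge and multiply. Hormone-producing cells carry a large load of secretory protein through the endoplasmic reticulum (ER), where chaperones fold it and a degradation pathway removes what fails to fold.

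Signals are given as log2 of the background-corrected, quantile-normalised intensity, and every difference is mutant minus wild type. A gene was called when its difference had a Benjamini-Hochberg adjusted p under 0.05 in a linear model fitted with limma to all 24 arrays and all 12027 genes measured. Adjusted p-values below are from that model, and ± after a difference is its standard error. Called genes numbered 6197 in males, 51.5% of those tested, with 3005 (25.0%) higher and 3192 (26.5%) lower in mutants. So wide a background says little about a single call, and the text turns mainly on the 1154 genes (9.60%) that were called and differed at least 2-fold, 629 higher (5.23%) and 525 lower (4.37%). That count rests on the processing: it was 499 with the authors' processed values and 680 over genes detected on all 12 male arrays, and 75th percentile scaling split it into 575 higher and 617 lower. The 2-fold counts use the fold of the model. A gene that was not detected on all 6 arrays of a genotype has only a lower bound for its fold, worked out as described further on. Of the 1154 genes 476 had such a bound, and in 157 it was under 2-fold, which leaves 521 higher and 476 lower. Where a list's count changes in that way, the count left is given in brackets as that by the bound. Of the 1154, 208 differed at least 4-fold by the model, 122 higher and 86 lower. The median difference over all genes was -0.01, and 90% of genes lay between -0.93 and 1.02. The 6 mutant and 6 wild-type values did not overlap for 3698 genes (30.7%).

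The male arrays separated by genotype first: component 1 of a principal component analysis took up 68.2% of the variance over the 9303 genes detected on all 12 arrays, with the wild types on one side and the mutants on the other. The next component, with 7.51%, ran among the animals of both genotypes, from wild-type male 1 (-16.9) to wild-type male 6 (17.9) and from mutant male 1 (-8.41) to mutant male 3 (12.5). Each array had a median of 42 to 44 beads per probe, and the median bead standard error of a signal was 0.06 log2, against a median SD between animals of 0.18 in wild types and 0.16 in mutants. The share of probes detected (detection p under 0.05 against the array's negative controls) was 39.7 to 43.1% in wild-type and 47.1 to 49.0% in mutant males. The dimmest normalised signal that counted as detected was higher in wild types, 5.52 to 5.79 against 5.19 to 5.28, which touches every gene near that limit. After quantile normalisation this limit follows from the share of probes detected and is not a separate property of the arrays. The median raw signal of clearly undetected probes overlapped, at 79.9 to 101 in wild-type and 81.4 to 95.8 in mutant males.

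Cga itself lay between 14.68 and 14.89 (median 14.76) in wild-type males and between 12.22 and 12.71 (median 12.40) in mutants, without overlap, a fall of 5.14-fold (adjusted p = 3.8e-16). It was still detected on every mutant array, and the position of its probe relative to the deleted stretch was not tested. The beta subunit genes moved apart from one another. Tshb, of thyrotropin, lay between 14.17 and 14.55 (median 14.44) in wild-type males and between 14.84 and 14.97 (median 14.89) in mutants, a rise of 1.41-fold (adjusted p = 0.00029). Lhb, of luteinizing hormone, lay between 13.72 and 14.29 (median 13.90) in wild-type males and between 12.45 and 13.05 (median 12.74) in mutants, a fall of 2.32-fold (adjusted p = 8.8e-09). Neither gene overlapped between the genotypes. Fshb, of follicle-stimulating hormone, differed by -0.43 ± 0.34 (adjusted p = 0.3), Prl, prolactin, by -0.10 ± 0.15 (adjusted p = 0.59), Gh, growth hormone, by -0.15 ± 0.06 (adjusted p = 0.053) and Pomc, the corticotropin precursor, by 0.03 ± 0.08 (adjusted p = 0.77). Wild-type signals of Cga, and all signals of Tshb, Pomc, Prl and Gh, lay close to the top of the normalised scale (15.2), where differences can be compressed.

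Among genes detected on all 12 arrays, the largest rise was that of Nupr1, a small nuclear protein induced by cell stress. Nupr1 lay between 8.63 and 8.78 (median 8.72) in wild-type males and between 13.01 and 13.53 (median 13.42) in mutants, 24.7-fold higher (adjusted p = 1.7e-19). Both genotypes formed tight groups, the mutants far above the wild types. Trhr, the receptor for thyrotropin-releasing hormone, lay between 6.03 and 7.05 (median 6.50) in wild-type males and between 10.62 and 11.31 (median 11.11) in mutants, 23.1-fold higher (adjusted p = 4.7e-17). Sncg, gamma-synuclein, lay between 6.17 and 6.77 (median 6.30) in wild-type males and between 10.52 and 11.15 (median 10.82) in mutants, 21.7-fold higher (adjusted p = 4e-19). In all 3 genes every mutant stood far above every wild type. Omg, a myelin glycoprotein, rose 10.7-fold, the cell adhesion protein Cdh13 10.1-fold, the ER calcium pump Atp2a3 by 3.32 on the log2 scale and the small GTPase Diras2 9.77-fold. The channel and receptor auxiliary subunit Cacng5 rose 8.50-fold, the glucose transporter Slc2a6 8.30-fold, the diacylglycerol kinase Dgkk 8.07-fold and the peptide precursor Cartpt 7.64-fold. Adjusted p-values of these 8 genes ran from 5.7e-16 to 1.7e-10. The largest rises and falls were picked among called genes without overlap between the genotypes, so neither trait is a result for them. Mutant male 3 was the highest mutant, apart from the rest, for Atp2a3 (11.84) and Cacng5 (10.39).

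The largest fall was that of Dock3, a guanine nucleotide exchange factor for the GTPase Rac. Dock3 lay between 13.59 and 13.88 (median 13.66) in wild-type males and between 6.26 and 9.62 (median 8.19) in mutants, 48.4-fold lower (adjusted p = 4.3e-12), and its mutant values were far more scattered than its wild-type values. Ush1c, the scaffold protein harmonin, lay between 10.48 and 10.72 (median 10.61) in wild-type males and between 6.14 and 6.78 (median 6.34) in mutants, 18.6-fold lower (adjusted p = 1.6e-21). Pcsk6, a proprotein convertase, lay between 12.53 and 12.80 (median 12.57) in wild-type males and between 9.12 and 9.58 (median 9.43) in mutants, 9.31-fold lower (adjusted p = 7.1e-17). Every mutant lay far below every wild type in each of these genes. The glycosyltransferase Galnt16 fell 11.1-fold, Hsbp1l1 8.40-fold, the tissue kallikrein Klk1b21 7.79-fold, the calcium channel beta subunit Cacnb4 7.51-fold and the G protein regulator Rgs16 7.42-fold. The monocarboxylate transporter Slc16a5 fell 6.71-fold, the glycine receptor subunit Glra2 6.41-fold, Brinp1 6.33-fold and the junction protein Cgnl1 6.19-fold. Adjusted p-values of these 9 ran from 1.4e-18 to 1.3e-09, and absence of overlap was again a condition of the choice. Kallikrein genes are close copies of one another, and what else the Klk1b21 probe can bind was not tested.

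**Figure D1:**
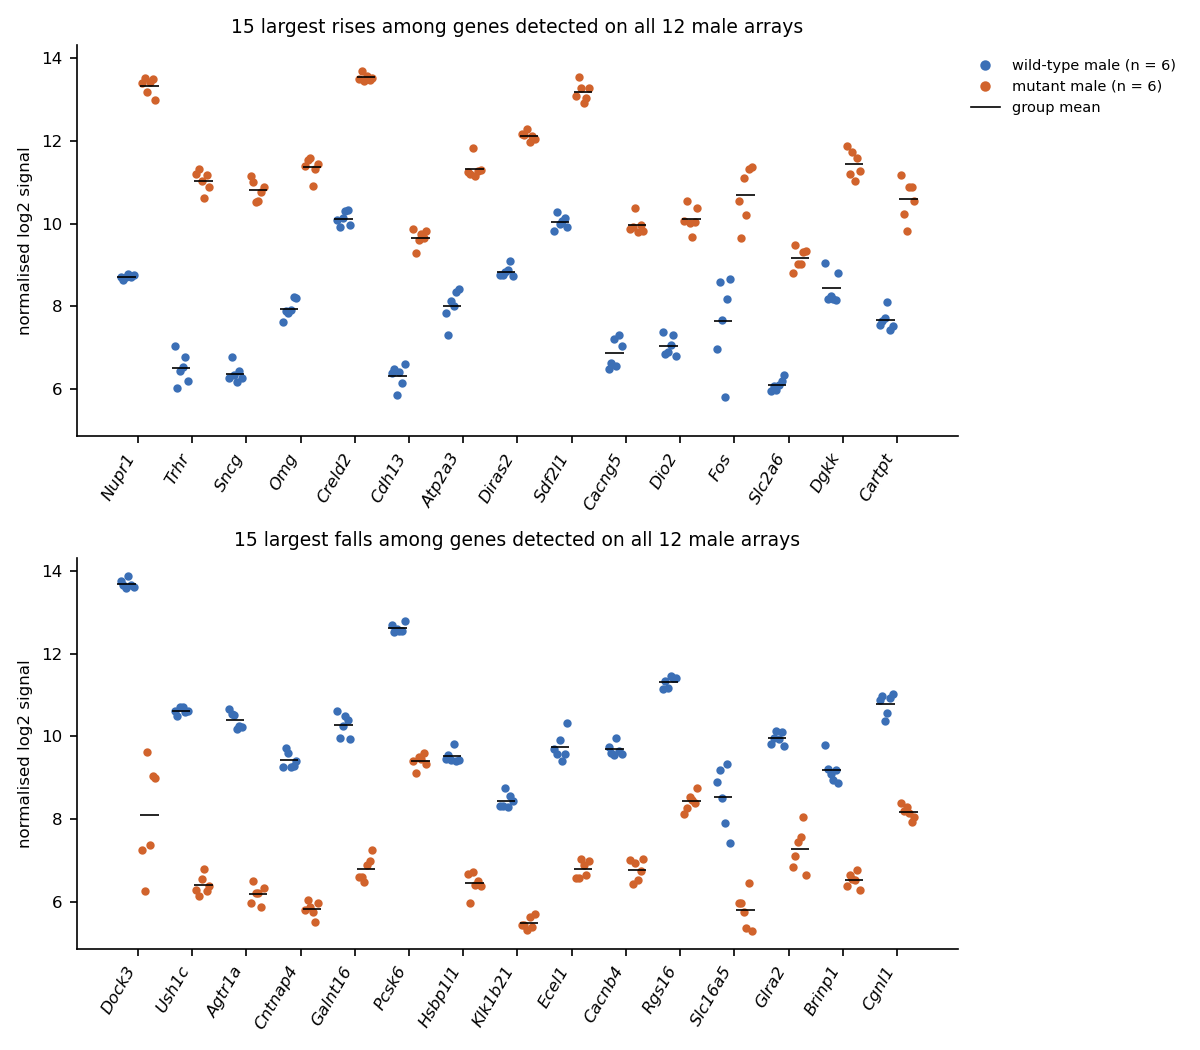
Normalised log2 signal of the 15 genes with the largest rise (top) and the 15 with the largest fall (bottom) among genes detected on all 12 male arrays and without overlap between the genotypes. Each point is 1 animal, blue for the 6 wild-type and orange for the 6 mutant males, and the bars are group means. Most groups are tight, while the mutant values of Dock3 run from 6.26 to 9.62 and the wild-type values of Fos from 5.80 to 8.66.

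A further set of genes was detected on every array of one genotype and on none of the other. There were 383 genes detected only in mutant and 69 only in wild-type males, or 619 and 41 where detection was set at a detection p under 0.01. More probes were detected on the mutant arrays, so the limit on the normalised scale was lower there. A stricter count took only genes whose brighter genotype lay above the highest limit of any male array (5.79) on all 6 arrays, which left 134 and 51. For such genes a fold is a lower bound: the bright group's mean is set against the mean, over the dim group's arrays, of the lowest detected signal or the gene's own signal, whichever is higher. By that bound 66 were at least 2-fold higher and 44 at least 2-fold lower in mutants. Of the 383 and 69, 108 and 23 were switched in the same way between the female genotypes, too.

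The largest of the genes detected only in mutants was Wfdc18, a small secreted protein with a whey acidic protein domain. Its signal lay between 10.88 and 12.07 (median 11.89) in mutants and at 4.69 or below in wild types, at least 66.0-fold higher (adjusted p = 1.6e-21). Th, tyrosine hydroxylase, which makes the precursor of dopamine, reached 10.71 to 11.44 (median 10.88) in mutants, at least 39.9-fold higher (adjusted p = 2.5e-22). Calb2, the calcium-binding protein calretinin, reached 10.53 to 11.27 (median 10.71), at least 35.7-fold higher (adjusted p = 3e-21). Detection in mutants only was the condition of choice here, so the adjusted p-values are not separate support. All mutant signals of these 3 genes lay at 10.53 or above. Tyrp1, an enzyme of melanin synthesis, rose at least 20.2-fold, Sst, somatostatin, at least 13.5-fold, the Kunitz inhibitor Spint4 at least 8.99-fold, the vasopressin receptor Avpr1a at least 8.45-fold and the polycystin Pkd1l3 at least 7.85-fold. Ly6g6c, a cell surface protein, rose at least 19.6-fold (adjusted p = 5.2e-10), with mutants from 8.51 to 11.81 (median 9.69), a wide range that did not reach the wild types.

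Among genes detected only in wild types, Greb1, an estrogen-induced gene, lay between 7.82 and 8.67 (median 8.40) in wild types and was at least 8.43-fold lower in mutants (adjusted p = 4e-15). Spink8, a Kazal-type protease inhibitor, was at least 4.93-fold lower (adjusted p = 7.7e-11), the dopamine receptor Drd4 at least 4.65-fold (adjusted p = 5.8e-15) and the deubiquitinase Usp49 at least 4.07-fold (adjusted p = 5.4e-16). The calcium buffer Pvalb, parvalbumin, was at least 3.79-fold lower, the odorant receptor Olfr47 at least 3.98-fold, the transporters Slc6a11 and Slc5a8 at least 3.87-fold and 3.81-fold, and the complement protein C9 at least 3.37-fold. Actn3, an actin-binding protein of muscle, was at least 3.80-fold lower by its brightest probe, while 1 other probe of it was called in the opposite direction.

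Genes of the ER folding machinery rose together. Of 19 chaperones, disulfide isomerases and co-factors measured, 18 rose and 0 fell, 13 (11 by the bound) of them at least 2-fold, with a median difference of 1.37 (all genes -0.01). The member not called was Txndc5, named here after its value was seen. The mean signal of the list was 10.03 to 10.13 (median 10.10) on the wild-type and 11.38 to 11.68 (median 11.53) on the mutant arrays, so the genotypes did not overlap. Creld2, an ER stress-induced protein, lay between 9.91 and 10.32 (median 10.11) in wild-type males and between 13.44 and 13.70 (median 13.52) in mutants, 10.7-fold higher (adjusted p = 7.2e-19). Sdf2l1, part of an ER chaperone complex, lay between 9.82 and 10.28 (median 10.03) in wild-type males and between 12.92 and 13.55 (median 13.17) in mutants, 8.90-fold higher (adjusted p = 4.2e-17). The genotypes lay far apart in both genes. The disulfide isomerases Pdia4 and Pdia6 rose 4.68-fold and 4.17-fold. The Hsp70 chaperone Hspa5 (BiP) rose 3.96-fold, the lectin chaperone Calr 3.38-fold, the Hsp90 chaperone Hsp90b1 2.88-fold and the co-chaperone Dnajc3 2.58-fold (adjusted p at most 4.8e-07 in each).

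Transcription of ER chaperones is known to be driven through the ER stress element, spelled CCAAT, then 9 bases of any kind, then CCACG, which was searched on both strands from 250 bases before to 50 bases after the start of each gene in the promoter sequences of RefSeq (GRCm38.p6). It was found at 39 of 32851 starts (0.119%) and in 17 of the 9703 tested genes with a promoter sequence (0.175%). Of the 15 ER chaperones with a sequence, 6 held it. The share was 1.47% (7 genes) among genes called and at least 2-fold higher in mutant males and 0.247% (1 gene) among those at least 2-fold lower. All 7 of the higher genes are listed ER genes, so the 1.47% counts the same genes as the windows below. None of the other tested genes with the element was called and at least 2-fold higher. The windows below are those of the listed ER genes that hold the element. Each is written 5′ to 3′ along the gene's own strand, with the fixed letters of the element in capitals, reading CGTGG and ATTGG where it lies on the opposite strand. A match is a description of the letters and does not show that a factor binds there.
Hspa5 (chr2:34772005-34772063, + strand): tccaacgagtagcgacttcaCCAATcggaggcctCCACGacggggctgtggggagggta
Creld2 (chr15:88819500-88819558, + strand): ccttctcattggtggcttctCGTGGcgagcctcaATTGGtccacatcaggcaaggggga
Derl3 (chr10:75893222-75893280, + strand): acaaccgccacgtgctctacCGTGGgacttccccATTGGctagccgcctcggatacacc
Pdia6 (chr12:17266471-17266529, + strand): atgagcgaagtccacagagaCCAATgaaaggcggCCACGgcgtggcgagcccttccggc
Dnajc3 (chr14:118937807-118937865, + strand): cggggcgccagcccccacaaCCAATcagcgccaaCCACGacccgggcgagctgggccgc
Calr (chr8:84847055-84847113, - strand): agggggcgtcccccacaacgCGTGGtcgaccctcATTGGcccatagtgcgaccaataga
Hsp90b1 (chr10:86705618-86705676, - strand): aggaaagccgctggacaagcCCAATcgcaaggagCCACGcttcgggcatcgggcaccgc
Hsp90b1 (chr10:86705513-86705571, - strand): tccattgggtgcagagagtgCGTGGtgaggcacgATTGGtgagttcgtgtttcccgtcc
Syvn1 (chr19:6046512-6046570, + strand): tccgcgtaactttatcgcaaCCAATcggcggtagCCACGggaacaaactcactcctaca

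Hsp90b1 held 2 elements, and 7 of these 8 genes rose at least 2-fold. The remaining gene, Syvn1, the ubiquitin ligase of ER-associated degradation, lay between 12.43 and 12.85 (median 12.58) in wild-type males and between 12.92 and 13.37 (median 13.24) in mutants, a rise of 1.49-fold (adjusted p = 0.00038). Calr rose less on 1 mutant array than on the others: mutant male 5 lay at 12.13, with the other mutants at 12.85 or above. Derl3, a channel component of ER-associated degradation, was undetected in all wild types and lay between 9.61 and 9.95 (median 9.78) in mutants, at least 17.8-fold higher (adjusted p = 1e-16). Of 15 degradation genes 10 rose and 1 fell, 4 of them rising at least 2-fold (median 0.66). Edem1, a lectin that picks misfolded glycoproteins, rose 3.38-fold, and Sel1l, the ligase's partner, 3.13-fold (adjusted p = 7.6e-12 and 6.1e-14). Nploc4, a cofactor of the extracting ATPase, was the member that fell, by 0.47 (adjusted p = 0.0091).

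Nupr1 is also counted among targets of the integrated stress response, the pathway in which the transcription factors Atf4 and Ddit3 act. Of 21 such genes 9 rose and 4 fell, 3 (2 by the bound) rising at least 2-fold, with a median of 0.25. That is a called share of 61.9%, against 51.5% of all genes. The core of the amino acid response element that Atf4 binds, TTGCATCA on either strand, was found at 294 of 32851 starts (0.895%), in 75 of 9703 tested genes (0.773%) and in 5 of the 21 targets (23.8%). The share was 1.26% (6 genes) among genes called and at least 2-fold higher in mutant males and 0.988% (4 genes) among those at least 2-fold lower. The windows of the 3 targets with the core that were called and at least 2-fold higher in the model are shown with the core in capitals.
Nupr1 (chr7:126625553-126625600, - strand): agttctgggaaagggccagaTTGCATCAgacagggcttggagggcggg
Fgf21 (chr7:45615602-45615649, - strand): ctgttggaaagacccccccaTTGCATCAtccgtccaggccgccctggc
Atf3 (chr1:191183416-191183463, - strand): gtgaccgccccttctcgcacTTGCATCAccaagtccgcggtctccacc

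The members with this core did not share a response. Fgf21, a stress-induced hormone, was undetected in wild types and at least 2.35-fold higher in mutants (adjusted p = 3.4e-09). Atf3, a stress-induced transcription factor, lay at 5.04 or below in wild types and between 5.23 and 7.21 (median 5.86) in mutants, where it was detected on 5 of 6 arrays, at least 1.38-fold higher (adjusted p = 0.0042). Vldlr, a lipoprotein receptor, rose 1.31-fold (adjusted p = 0.0078), and Chac1, which breaks down glutathione, differed by -0.19 ± 0.20 (adjusted p = 0.45).

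The rest of the secretory route moved less uniformly. Counts of the lists stand beside a background over all genes of 25.0% called higher and 26.5% called lower. Of 25 genes of N-glycosylation 12 rose and 2 fell (median 0.21). The rises included the transferase subunits Rpn2 (1.81-fold, adjusted p = 5e-12) and Ddost (1.71-fold, adjusted p = 1.7e-07). Of 23 genes that bring proteins into the ER 8 rose and 7 fell (median 0.05). The signal peptidase subunit Sec11c lay between 9.48 and 10.35 (median 10.11) in wild-type males and between 11.50 and 11.92 (median 11.63) in mutants, 3.09-fold higher (adjusted p = 6.4e-10). Ssr4 and Ssr1, subunits of the translocon-associated complex, rose 1.67-fold and 1.57-fold, while their partner Ssr2 fell 1.98-fold (adjusted p = 1.2e-09, 4.6e-05 and 2.3e-07). Members of that complex were thus called in opposite directions. Of 28 genes of the transport vesicle coats and their cargo receptors 8 rose and 11 fell (median -0.15), and the cargo receptor Tmed3 rose 3.46-fold while Sec16b, an organiser of ER exit sites, fell 2.47-fold (adjusted p = 8.5e-12 and 2.2e-06).

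At the secretory granule, 6 of 13 genes rose and 2 fell (median 0.40), a called share of 61.5% against 51.5% of all genes. Vgf, a granule peptide precursor, lay between 6.95 and 7.40 (median 7.25) in wild-type males and between 9.03 and 10.31 (median 9.94) in mutants, 6.18-fold higher (adjusted p = 2.8e-08), and the granule membrane protein Ptprn rose 2.89-fold (adjusted p = 2.4e-12). Sytl4, an effector of granule docking, went the other way, between 11.85 and 12.43 (median 12.02) in wild-type males and between 10.54 and 10.93 (median 10.69) in mutants, 2.54-fold lower (adjusted p = 1.3e-10). None of these genes overlapped between the genotypes. Of 47 fusion proteins and synaptotagmins 14 rose and 14 fell (median 0.00), with the calcium sensor Syt9 2.46-fold lower and Sytl3 2.28-fold higher (adjusted p = 1.7e-10 and 4.8e-10). The called share of that list was 59.6%. Of 56 Rab GTPases 15 rose, 12 fell and 1 passed 2-fold, Rab34, which fell 2.48-fold (adjusted p = 1.1e-10). The called share of the Rab list, 48.2%, was near the 51.5% of all genes. Lysosomal hydrolases were called upward only, 15 of 26 with a median of 0.47, led by the sialidase Neu1 (2.31-fold), the galactosidase Glb1 (2.32-fold) and the protease Ctsc (2.45-fold; adjusted p at most 2.2e-08). The mean signal of that list was 9.10 to 9.21 (median 9.15) on the wild-type and 9.43 to 9.75 (median 9.64) on the mutant arrays. Macrophage markers moved with it: all 12 of 12 measured rose, with a mean signal of 6.83 to 7.20 (median 7.05) on the wild-type and 8.11 to 8.72 (median 8.28) on the mutant arrays. Mutant male 6 was the highest and mutant male 3 the lowest mutant in both lists, and the part of macrophages in the lysosomal rise was not tested. Of 27 autophagy genes 3 rose and 9 fell (median -0.18), a called share of 44.4% against 51.5% of all genes, with few rises and falls near the background of 26.5%. Atg9b fell 2.76-fold and the phosphoinositide-binding protein Wipi1 rose 2.08-fold (adjusted p = 2.1e-07 and 1e-07).

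Enzymes that build glycans and sulfate them were called in both directions, 33 higher and 35 lower of 100 (median -0.02). Over all genes 25.0% were called higher and 26.5% lower. At least 2-fold were 8 and 8 (7 by the bound), against 5.23% and 4.37% of all genes. Hs6st2, a heparan sulfate sulfotransferase, lay between 5.56 and 6.58 (median 6.25) in wild-type males and between 9.78 and 10.52 (median 10.31) in mutants, at least 16.4-fold higher and detected on 5 of 6 wild-type arrays (adjusted p = 1.6e-17). Fut2, a fucosyltransferase, lay between 8.53 and 9.09 (median 8.92) in wild-type males and between 5.03 and 5.84 (median 5.39) in mutants, at least 11-fold lower and detected on 4 of 6 mutant arrays (adjusted p = 1.2e-16). The genotypes lay far apart for both enzymes. The sialyltransferase St6galnac5, the sulfotransferase Chst9 and the mannosidase Man1a were undetected in wild types and at least 5.64-fold, 5.42-fold and 3.40-fold higher in mutants (adjusted p = 6e-19, 2e-15 and 1e-13).

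Markers of the hormone cells differed by cell type. In RNA of the whole gland, fewer cells of a type and less RNA per cell cannot be told apart. Of 9 thyrotrope markers 7 rose, 4 (3 by the bound) at least 2-fold, and 1 fell, with a median of 0.83, or 0.61 with such genes at their bound. Beside Trhr, they included Dio2, the deiodinase that activates thyroxine, which lay between 6.81 and 7.39 (median 6.98) in wild-type males and between 9.69 and 10.55 (median 10.05) in mutants, 8.40-fold higher (adjusted p = 1.1e-13). Isl1, a transcription factor, rose 2.39-fold (adjusted p = 2.8e-09). Thrb, a thyroid hormone receptor, was detected on 1 wild-type and all mutant arrays and was at least 1.52-fold higher (adjusted p = 2.5e-05). The wild-type and mutant values of these genes did not overlap. Somatotrope markers fell for 4 of 7, all at least 2-fold, and rose for 2 (median -1.48). Neurod4, a transcription factor, lay between 9.22 and 10.22 (median 9.46) in wild-type males and between 6.86 and 7.35 (median 7.16) in mutants, 5.38-fold lower (adjusted p = 4.2e-11). The receptors Ghrhr, for growth hormone-releasing hormone, and Sstr5, for somatostatin, fell 2.91-fold and at least 5.96-fold (Sstr5 detected on 3 mutant arrays; adjusted p = 2.1e-08 and 2.8e-14). Rorb, an orphan nuclear receptor on that list, rose 1.50-fold (adjusted p = 3.5e-05).

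Of 8 lactotrope markers 4 fell, all at least 2-fold, and 0 rose (median -0.72). Agtr1a, an angiotensin II receptor, lay between 10.17 and 10.65 (median 10.39) in wild-type males and between 5.88 and 6.50 (median 6.22) in mutants, 18.4-fold lower (adjusted p = 7.1e-17). Angpt1, an angiopoietin, lay between 8.17 and 8.79 (median 8.54) in wild-type males and between 5.43 and 6.33 (median 6.24) in mutants, 5.26-fold lower (adjusted p = 3.1e-10), with mutant male 3 apart from the other mutants at 5.43. Esr1, estrogen receptor alpha, fell 4.13-fold (adjusted p = 1.3e-10). Every mutant was below every wild type in these genes. Of 8 gonadotrope markers 2 rose and 2 fell: Gnrhr, the gonadotropin-releasing hormone receptor, fell 2.70-fold and the transcription factor Gata2, shared with thyrotropes, rose 1.78-fold (adjusted p = 9.3e-05 and 0.0008). Posterior lobe markers were called for 1 of 8, Oxt, oxytocin, which fell 3.38-fold (adjusted p = 6.6e-08). None of 3 red blood cell markers was called by limma (median -0.62), 1 of them had an unadjusted p under 0.05, and the mean signal of that list was 8.96 to 9.92 (median 9.42) on the wild-type and 8.28 to 9.44 (median 8.95) on the mutant arrays, with overlap.

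Hormone feedback genes were called in both directions. Of 13 genes of the thyroid hormone axis 5 rose and 3 fell, 4 (3 by the bound) and 2 at least 2-fold. The called share was 61.5%, against 51.5% of all genes. Hr, a corepressor gene that thyroid hormone induces in brain, lay between 10.45 and 11.08 (median 10.86) in wild-type males and between 8.06 and 8.70 (median 8.24) in mutants, 5.82-fold lower (adjusted p = 3.3e-14). Klf9, a transcription factor that thyroid hormone also induces, fell 2.24-fold (adjusted p = 1.1e-05), and Slc16a10, a thyroid hormone and amino acid transporter, at least 1.64-fold with 2 mutant arrays detected (adjusted p = 2.7e-06). The mutants lay below all wild types for each of these 3. Of 10 sex steroid genes 3 rose and 4 fell, a called share of 70.0%, with 3 of the falls at least 2-fold. Beside Esr1 and Greb1, Fkbp5, a co-chaperone that steroid receptors induce, fell 2.06-fold (adjusted p = 3.2e-07). Igfbp4 and Igfbp3, which bind insulin-like growth factors, rose 1.68-fold and 1.75-fold, and the coactivator Cited1 at least 2.60-fold (adjusted p = 1.2e-06, 8.4e-05 and 1.2e-05).

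Among secreted peptides, 9 of 18 rose and 2 fell, 5 and 2 at least 2-fold. Their median was 0.42, or 0.30 with genes that have only a bound set at it. Of the peptides 61.1% were called, against 51.5% of all genes. Rln3, relaxin-3, lay between 5.19 and 5.92 (median 5.54) in wild-type males and between 6.98 and 9.15 (median 8.74) in mutants, at least 6.39-fold higher and detected on 2 of 6 wild-type arrays (adjusted p = 2e-08). Penk, preproenkephalin, lay between 6.18 and 6.76 (median 6.60) in wild-type males and between 5.03 and 5.68 (median 5.29) in mutants, at least 2.25-fold lower with 5 mutant arrays detected (adjusted p = 1.3e-09), and Nmu, neuromedin U, fell 2.08-fold (adjusted p = 1.5e-06). These peptides, like Sst, Cartpt and Vgf, separated the genotypes without overlap. Adhesion proteins of synapses rose for 14 of 26 and fell for 5 (median 0.38), a called share of 73.1%. Ntm, neurotrimin, was undetected in wild types and at least 7.48-fold higher in mutants (adjusted p = 2.9e-15). Lrrtm2, detected on 4 wild-type arrays, rose at least 4.28-fold and Cntnap2 2.72-fold, while Cntnap4, of the same family as Cntnap2, lay between 9.26 and 9.72 (median 9.34) in wild-type males and between 5.52 and 6.04 (median 5.84) in mutants, 12.1-fold lower, and Lrfn2 fell 3.50-fold (adjusted p = 1.1e-11, 1.1e-09, 7.8e-09 and 1.2e-08). Close members of that family thus moved apart.

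Protease inhibitors of the serpin, whey acidic protein, Kunitz, Kazal and cystatin families were called for 24 of 28, 13 higher and 11 lower, 9 (8 by the bound) and 4 at least 2-fold. Wfdc17 lay between 5.39 and 6.16 (median 5.62) in wild-type males and between 12.31 and 13.80 (median 13.43) in mutants, at least 170-fold higher (adjusted p = 3.6e-19), with 3 of 6 wild-type arrays detected. Serpinb1a, an intracellular inhibitor of neutrophil proteases, lay between 5.34 and 6.00 (median 5.70) in wild-type males and between 8.60 and 8.97 (median 8.81) in mutants, at least 8.15-fold higher with 4 wild-type arrays detected (adjusted p = 3.7e-15). Wfdc17, Wfdc18 and Serpinb1a stood apart in every mutant. The cystatin Cst11 and Wfdc1 fell 2.97-fold and 2.45-fold, and Spint5, detected on 1 mutant array, at least 2.37-fold (adjusted p = 1.8e-12, 3.9e-08 and 1.3e-10). Immediate early genes, transcribed within minutes of a stimulus, rose for 8 of 17 and fell for 1 (median 0.72). The called share, 52.9%, was near the 51.5% of all genes, and 4 of the 17 did not overlap between the genotypes, against 30.7% of all genes. The mean signal of the list was 6.80 to 7.93 on the wild-type and 7.24 to 8.72 on the mutant arrays, with overlap. Fos lay between 5.80 and 8.66 (median 7.92) in wild-type males and between 9.66 and 11.37 (median 10.82) in mutants, 8.32-fold higher (adjusted p = 0.00025), with no overlap but with a wide range among wild types. Arc rose at least 2.26-fold and Klf4 at least 1.86-fold, detected on 1 and 2 wild-type arrays, whereas Egr2 fell 2.19-fold (adjusted p = 0.00015, 2.1e-06 and 0.012). Tceal5, of a family resembling transcription elongation factors, lay between 10.42 and 10.98 (median 10.57) in wild-type males and between 12.19 and 12.49 (median 12.32) in mutants, 3.27-fold higher (adjusted p = 1.7e-12).

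Genes of antigen presentation by class II molecules rose throughout the list, 9 of 9, 8 (7 by the bound) at least 2-fold (median 1.63). H2-Ab1 lay between 9.67 and 10.40 (median 10.12) in wild-type males and between 11.73 and 12.99 (median 12.31) in mutants, 4.50-fold higher (adjusted p = 3.9e-10). H2-Eb1 lay between 9.13 and 9.77 (median 9.48) in wild-type males and between 11.25 and 12.10 (median 11.35) in mutants, 4.11-fold higher (adjusted p = 5.9e-11). Cd74, the invariant chain, rose 3.18-fold and the peptide exchange subunit H2-DMb2 3.10-fold (adjusted p = 4.9e-10 and 1.1e-09). No wild type reached any mutant in these 4 genes. Class II molecules are carried mainly by macrophages, dendritic cells and B cells. Macrophage markers rose for all 12 of 12 measured, 10 at least 2-fold (median 1.33), with the mean signals given above beside the lysosomal list. Aif1, a macrophage actin-binding protein, rose 3.04-fold, the complement gene C1qa 2.48-fold, the endotoxin co-receptor Cd14 at least 3.08-fold and the Fc receptor Fcgr3 at least 3.09-fold (4 and 5 wild-type arrays detected, adjusted p at most 4.9e-09). Of 13 lymphocyte markers only 3 were measured, and of these Cd79b, of the B cell receptor, went down, between 7.42 and 8.61 (median 7.92) in wild-type males and between 5.50 and 6.23 (median 5.62) in mutants, 4.69-fold lower (adjusted p = 3.2e-10), while the T cell gene Cd3e was undetected in wild types and at least 1.10-fold higher (adjusted p = 1.5e-05). The part of immune cell number in the rise of the class II genes was not tested.

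Cytokines, chemokines and their receptors rose for 39 of 76 and fell for 11, 18 (12 by the bound) and 5 (4 by the bound) at least 2-fold (median 0.35). Of that list 65.8% were called, against 51.5% of all genes. Ccl3, a chemokine of macrophages, was undetected in wild types and lay between 7.94 and 8.67 (median 8.48) in mutants, at least 6.92-fold higher (adjusted p = 8.1e-14). Ccl19, a chemokine that attracts dendritic cells and T cells, lay between 7.56 and 8.82 (median 8.45) in wild-type males and between 5.06 and 5.68 (median 5.40) in mutants, at least 7.78-fold lower and detected on 5 of 6 mutant arrays (adjusted p = 2.5e-14). The receptor gene Tnfrsf22 rose 3.36-fold by its brightest probe, with 1 other probe called the opposite way, and the interleukin receptor subunit Il20ra fell 3.55-fold (adjusted p = 1e-11 and 4.3e-14). Chemokines thus went in both directions, each without overlap between the genotypes. Of 30 complement and coagulation genes 16 rose and 4 fell (median 0.42), a called share of 66.7%. F5, coagulation factor V, was undetected in mutants and at least 2.14-fold lower (adjusted p = 2.5e-10), and the complement inhibitor gene Cfi fell 1.35-fold (adjusted p = 0.0069). The list was made by a rule on symbols that missed C9, given above among the genes detected only in wild types. It also caught C1qtnf12 and C1qtnf2, secreted relatives of C1q outside the cascade, which were 5.57-fold higher and at least 1.88-fold lower (C1qtnf2 detected on 5 mutant arrays, adjusted p = 2.1e-15 and 9.1e-09).

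**Figure D2:**
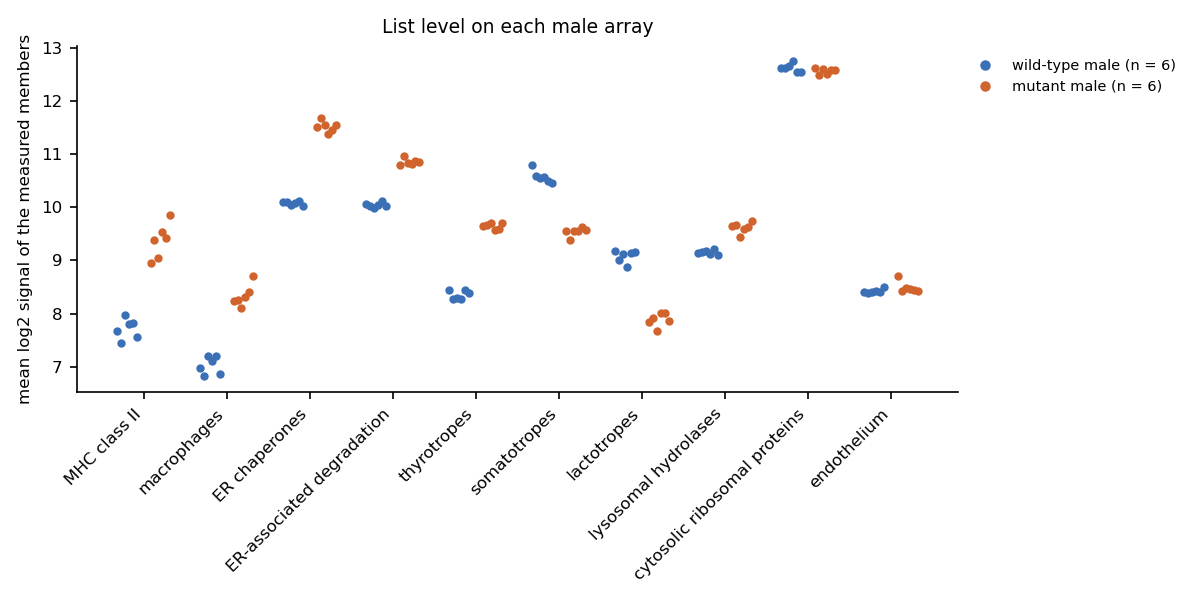
Mean log2 signal of the measured members of 10 gene lists on each male array, blue for the 6 wild-type and orange for the 6 mutant animals. The genotypes do not overlap for the class II, macrophage, ER, thyrotrope, somatotrope, lactotrope and lysosomal lists, and they overlap for the cytosolic ribosomal proteins (12.54 to 12.75 and 12.48 to 12.63).

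Members of several basic cell functions stayed under 2-fold. No member was called and at least 2-fold, against 9.60% of all genes, among 55 cytosolic and 72 mitochondrial ribosomal proteins, 35 proteasome subunits, 18 subunits of the vacuolar proton pump and 18 cytosolic tRNA synthetases, with medians of -0.07, 0.07, 0.00, 0.14 and -0.09. Members were still called, 10 of the cytosolic ribosomal proteins (largest called fall Rpl22, -0.54, adjusted p = 8.7e-05) and 20 of the mitochondrial ones (Mrpl11, 0.82, adjusted p = 2.2e-08), shares below the 51.5% of all genes. Of the subunits of the proton pump 9 were called, a share near that of all genes, and the mean signal of that list was 10.65 to 10.71 (median 10.67) on the wild-type and 10.80 to 10.86 (median 10.83) on the mutant arrays, without overlap. Vars, the valine tRNA synthetase, rose 1.74-fold and the pump subunit Atp6v0e2 1.66-fold (adjusted p = 4.7e-06 and 2.5e-06), and the catalytic proteasome subunit Psmb2 fell 1.38-fold (adjusted p = 3.2e-06). Of 12 endothelial markers 4 rose and 2 fell (median 0.01). The junction protein Cldn5 lay between 6.47 and 7.27 (median 6.85) in wild-type males and between 7.19 and 8.55 (median 7.73) in mutants, 1.96-fold higher (adjusted p = 0.00078), with a small overlap. Of 11 folliculostellate and stem cell markers 2 rose and 2 fell (median 0.08), a called share of 36.4%, below that of all genes. The transcription factor Lhx3 fell 1.84-fold (adjusted p = 2.8e-08). Corticotrope and melanotrope markers had a median of 0.03 over 5. Of 11 fibroblast and pericyte markers 2 rose and 3 fell, a called share of 45.5%, below that of all genes. The collagen Col3a1, detected on 4 wild-type arrays, rose at least 2.03-fold and the pericyte proteoglycan Cspg4 fell 1.93-fold (adjusted p = 2.1e-06 and 3.1e-10).

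Among 91 lists of families and pathways, 4373 symbols in all of which 2946 were measured, further ones leaned to one side. Chromatin and histone modifiers had 11 of 101 higher and 40 lower (median -0.20), histones 2 of 51 higher and 19 lower (median -0.17), and keratins, intermediate filaments and actin-binding proteins 8 of 57 higher and 25 lower (median -0.18). Potassium channels had 9 of 50 higher and 21 lower and fatty acid enzymes 3 of 21 higher and 11 lower. Mitochondrial carriers had 3 of 35 higher and 10 lower, and the respiratory chain 21 of 78 higher and 3 lower (median 0.12), so in each the larger of its shares was near the background and the smaller below it. Upward leaning lists were mitosis with 12 of 20 higher and 0 lower (median 0.58), the interferon response with 24 of 46 higher and 5 lower (median 0.39) and amino acid transporters with 9 of 18 higher and 2 lower (median 0.29). Mean signals of the mitosis list were 6.04 to 6.91 (median 6.56) on the wild-type and 6.76 to 7.40 (median 7.05) on the mutant arrays, so that list overlapped between the genotypes. These shares stand beside the background of 25.0% higher and 26.5% lower.

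**Figure D3:**
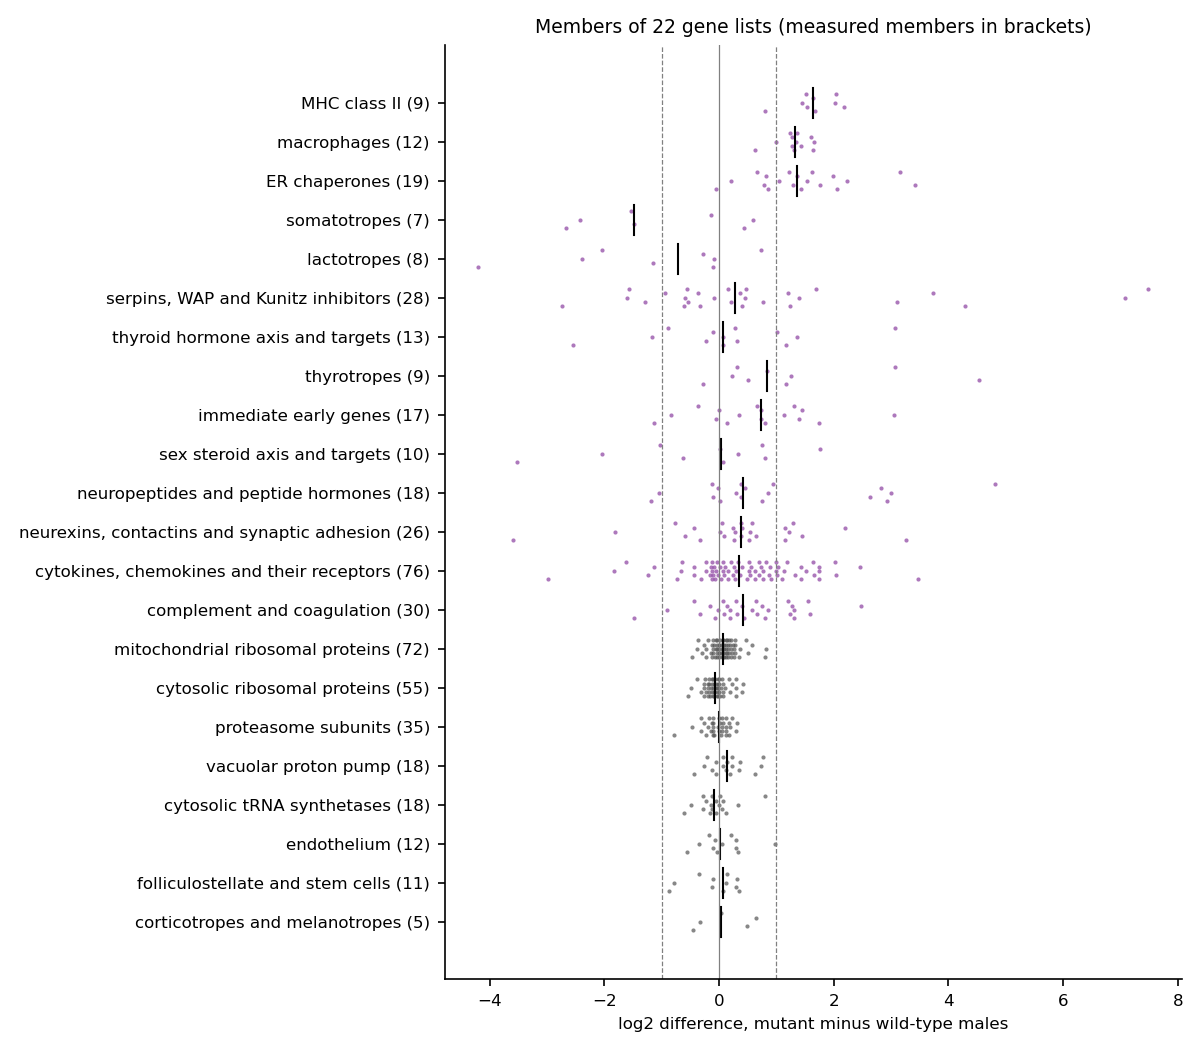
Log2 difference (mutant minus wild-type males) of each measured member of 22 gene lists, the 14 with the highest share of members called and at least 2-fold (purple) and the 8 with the lowest (grey). Each point is 1 gene, black bars are list medians and dashed lines mark 2-fold. The class II, macrophage and ER chaperone lists lie to the right with medians of 1.63, 1.33 and 1.37, and no called member of the grey lists passes 2-fold.

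The same genotype difference was measured in females, where 5808 genes were called (48.3%). Of the 1154 genes called and at least 2-fold in males, 1055 were called in the same direction in females, 6 in the opposite direction and 93 were not called there. These counts share no arrays between the sexes but rest on 1 pooled estimate of spread. The difference between the sexes was itself tested as an interaction, and 1637 genes (13.6%) were called, with the male difference above the female one for 765 (6.36%) and below it for 872 (7.25%). With 75th percentile scaling the split was 958 above and 729 below. Among the 1154 genes 420 were called for it, and in 362 of these the male difference was the larger in size. Genes chosen for their size in one sex favour that sex: of the 965 genes called and at least 2-fold in females 313 were called for the interaction, and in 246 of these the female difference was the larger.

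The class II genes were among them: 8 of 9 had a larger rise in males than in females by that test, with medians of 1.63 and 0.74. H2-Ab1 rose by 2.17 ± 0.19 in males and by 0.84 in females, a difference of 1.33 ± 0.27 (adjusted p = 0.0015). Macrophage markers were called for 3 of 12, with medians of 1.33 and 0.91, and ER chaperones for 2 of 19, with medians of 1.37 and 1.36. Cd14 rose by 1.65 ± 0.13 in males and by 0.37 in females (adjusted p of the difference = 3.2e-05). For Cd14 the wild types differed by sex, 5.63 to 6.10 in males and 6.60 to 7.10 in females. Its mutants overlapped, at 7.06 to 7.70 and 6.89 to 7.55. H2-Ab1 was alike, with wild types at 9.67 to 10.40 and 10.62 to 11.03 and mutants at 11.73 to 12.99 and 11.04 to 11.96.

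Stbd1, a glycogen-binding protein, had opposite calls in the sexes. It lay between 6.53 and 7.36 (median 6.96) in wild-type males and between 8.98 and 9.46 (median 9.19) in mutants, 4.74-fold higher, while female means were 9.70 in wild types and 9.26 in mutants, so its difference was 2.25 ± 0.13 in males and -0.44 in females (adjusted p of the difference = 3.1e-10). Wild-type males were thus the group that stood apart. Gal, galanin, lay between 8.41 and 9.26 (median 8.52) in wild-type males and between 8.32 and 8.97 (median 8.68) in mutants, a male difference of 0.01 ± 0.28 (adjusted p = 0.98), and fell from a mean of 12.61 to 8.36 in females (male minus female difference 4.25 ± 0.39, adjusted p = 8.8e-08). The extracellular proteins Crtac1 and Aebp1, the synaptic C1q-like protein C1ql2, Vwde and the quinone reductase Cryz fell in females as well, with male differences of 0.68, -0.02, 0.32, -0.40 and -0.17 against -2.33, -2.73, -2.22, -2.67 and -2.26 in females. Ecel1, an endothelin-converting enzyme-like protease, fell in both sexes, 7.76-fold in males, with differences of -2.96 in males and -5.27 in females (adjusted p of the difference = 4.2e-07).

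In the other direction, Slc45a3, a sugar transporter, lay between 7.11 and 8.20 (median 7.96) in wild-type males and between 5.51 and 6.41 (median 6.00) in mutants, 3.67-fold lower (adjusted p = 2e-08), with a female difference of -0.14 (adjusted p of the difference between the sexes = 0.00022). Angptl4, an inhibitor of lipoprotein lipase, and the transcript Gm26588 fell 2.70-fold and 3.01-fold in males and measured 0.43 and 0.08 in females (adjusted p of the difference = 0.00017 and 8.2e-07). The DNA repair gene Nsmce1, Ramp1, which modifies receptors of the calcitonin family, and Dgkk rose in both sexes and less in males, by 1.08, 1.19 and 3.01 against 2.77, 3.45 and 5.02. In each of these genes the wild types differed by sex and the mutants overlapped. Wild types lay at 9.41 to 9.98 in males and 7.76 to 8.33 in females for Nsmce1, with mutants at 10.63 to 10.96 and 10.53 to 10.97. For Dgkk they lay at 8.16 to 9.04 and 6.07 to 7.64, with mutants at 11.04 to 11.87 and 11.22 to 12.28. Fshb differed between the sexes with -0.43 in males and 2.11 in females (adjusted p = 0.0009). Of the genes switched off in mutant males, Drd4 measured a mean of 4.93 in wild-type and 4.74 in mutant females and was detected on no female array, so among the 4 groups it was detected in wild-type males only (adjusted p of the difference = 1.6e-09).

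**Figure D4:**
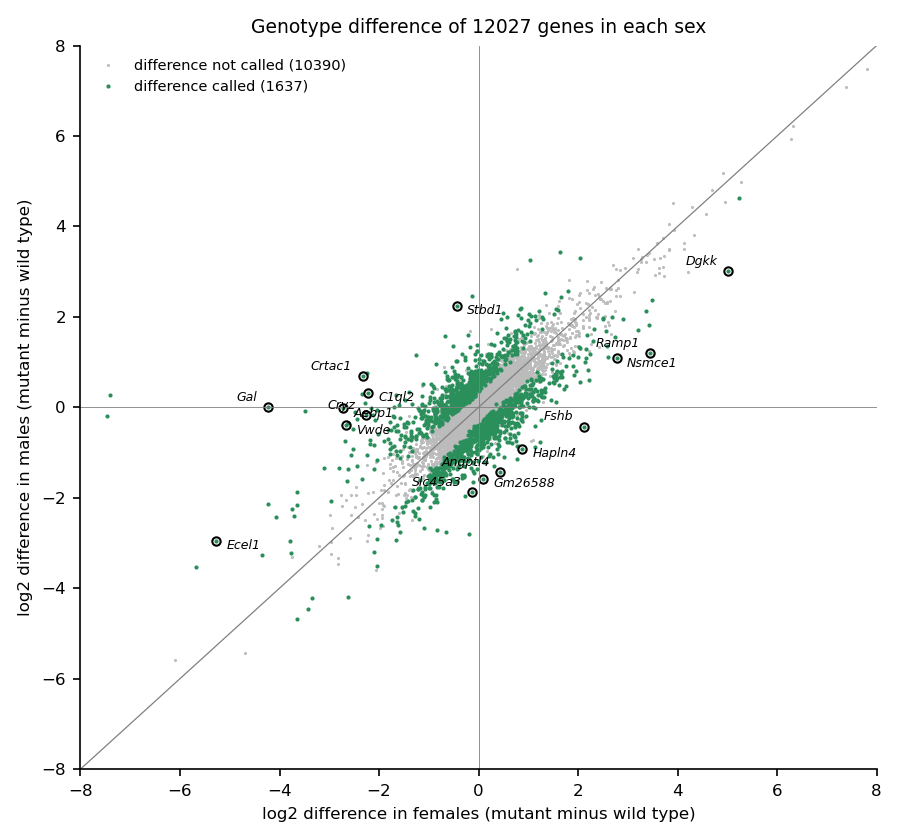
Log2 difference between mutants and wild types in females (horizontal axis) and in males (vertical axis) for 12027 genes. Green points are the 1637 genes called for a difference between the sexes, the line marks equal differences, and circles mark the 16 genes detected on all 24 arrays with the largest difference between the sexes each way. Stbd1 lies at 2.25 in males and -0.44 in females, and Gal at 0.01 and -4.24.

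The spread among animals was compared between the genotypes for the 9303 genes detected on all 12 arrays, by a linear model on each value's absolute distance from its group's mean. No gene was called at an adjusted p under 0.05 (0.00%), and 667 (7.17%) had an unadjusted p under 0.05, 219 with more and 448 with less spread in mutants. With distances from the group median in place of the mean, these were 133 and 239, and again no gene was called. With 6 animals a group this test finds few differences, so the count of 0 does not show that the spreads were alike. The smallest adjusted p was that of Dock3 (0.072). Its wild types lay between 13.59 and 13.88, and its mutants read 7.26, 6.26, 9.62, 7.38, 9.03 and 8.99. Mutant males 3, 5 and 6 were thus high and mutant males 1, 2 and 4 low. Dock3 passed without mutant male 2 (adjusted p = 0.0419) and without mutant male 4 (adjusted p = 0.0354), and with the authors' processed values (adjusted p = 0.0196).

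Several genes took separate levels among animals of 1 genotype. Psmd8, a proteasome subunit on chromosome 7, read 10.19, 9.99 and 10.28 in wild-type males 1, 3 and 4 and 10.82 in mutant male 4, and between 7.06 and 7.51 in the other 8. Clasrp, a splicing factor also on chromosome 7, read 8.96 or more in the same wild types and 9.43 in the same mutant, and between 6.48 and 6.84 in the rest. The 4 high animals were the same for both genes. Both female genotypes held high animals too. Wild-type females 1 and 5 and mutant females 2 and 4 read 10.09, 9.95, 10.12 and 10.85 for Psmd8, with the other females at 7.06 to 7.58. The same females read 8.53, 8.58, 8.66 and 9.40 for Clasrp, with the others at 6.08 to 6.93. Hjurp, a centromere chaperone on chromosome 1, and Ceacam2, a cell adhesion gene on chromosome 7, were also highest in wild-type males 1, 3 and 4, at 11.08 to 11.33 and 7.52 to 8.05, against 8.86 to 9.10 and 6.17 to 6.46 in wild-type males 2, 5 and 6. For Hjurp, mutant male 3 was as high, at 11.05, with the other mutants at 9.21 to 10.39. Without mutant male 4, the lone high mutant for Psmd8 and Clasrp, the spread of 7 genes was called, among them Clasrp (adjusted p = 7.88e-09), Psmd8 (6.46e-08) and Ceacam2 (0.00367), and without mutant male 3 that of A730008H23Rik (0.00451) and Hjurp (0.0101). For each of these named genes the animal left out was the highest mutant. Leaving it out by itself makes the mutants more alike, so these calls do not show a spread tied to genotype. On chromosome 15, the noncoding gene Snhg18 and the semaphorin Sema5a shared a low animal: wild-type male 6 read 7.16 and 7.05, with the other wild types at 9.64 to 11.03 and 8.77 to 9.77.

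Immediate early genes varied by animal rather than by genotype in places. Egr3 read 9.21 in wild-type male 6 and 6.90 or less in the other wild types, and 9.50 and 9.43 in mutant males 3 and 4 against 5.64 to 8.17 in the other mutants. Fosb was high in the same 3 animals, at 8.11, 7.70 and 8.01. For Fos, wild-type male 6 read 8.66 beside 8.60 in wild-type male 2, and mutant males 3 and 4 read 11.10 and 10.22, inside the range of the other mutants. Serpina3n, an acute-phase protease inhibitor, split the mutants: mutant males 2, 5 and 6 read 10.87, 10.41 and 10.18 and the other mutants 6.51 to 8.71, with wild types between 6.13 and 8.25. Its rise was called (adjusted p = 0.041) but was lost when any 1 of wild-type males 2, 4 and 6 and mutant males 2, 5 and 6 was left out (adjusted p = 0.0555 to 0.111). Rec8, a meiotic cohesin, ran from 5.36 in mutant male 5 to 10.28 in mutant male 4 and from 7.69 to 8.78 in wild types. Over the 9303 genes detected on all 12 male arrays, mutant male 3 lay apart from its group most often, for 2.14% of genes.

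**Figure D5:**
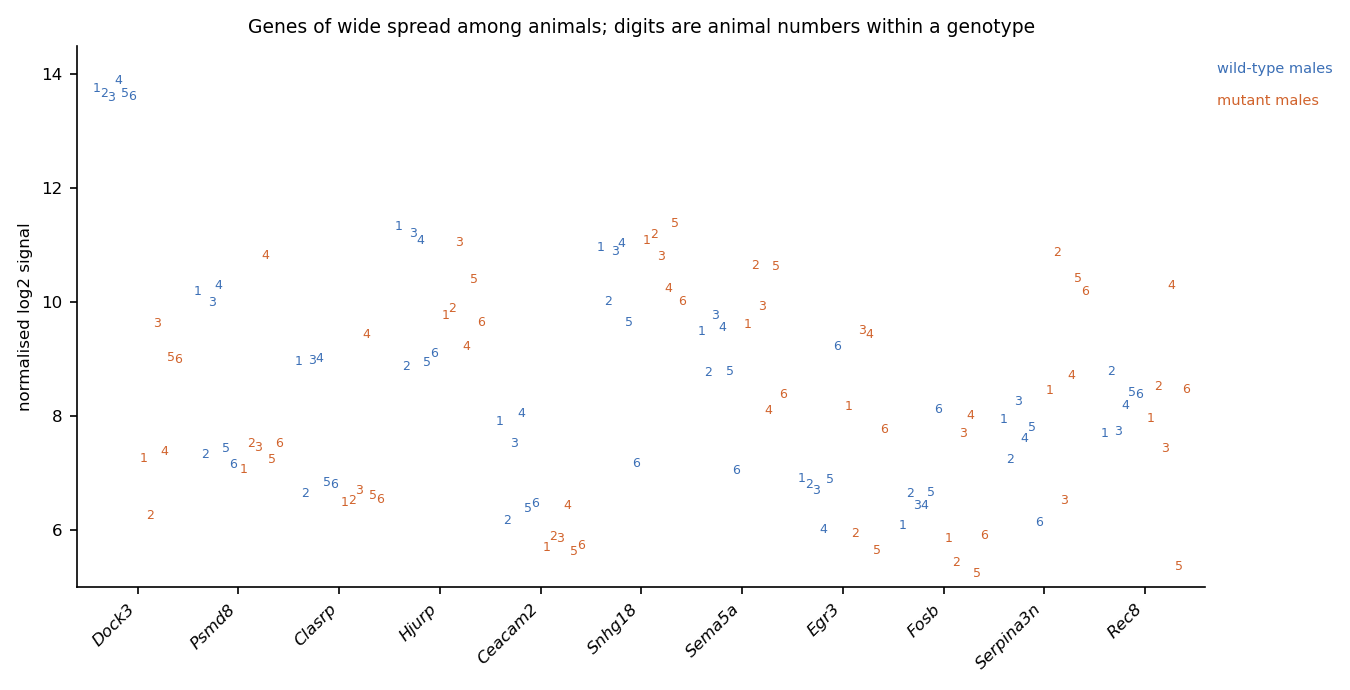
Normalised log2 signal of 11 genes with wide spread or distinct levels among animals. Each digit is the animal's number within its genotype, blue for the 6 wild-type and orange for the 6 mutant males, and numbers do not pair animals across genotypes. Wild-type males 1, 3 and 4 sit together at the top for Psmd8, Clasrp, Hjurp and Ceacam2, joined by mutant male 4 for Psmd8 and Clasrp and by mutant male 3 (11.05) for Hjurp.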

How the data were processed

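Pituitary RNA of 24 mice, 6 per sex and genotype, was measured on Illumina MouseWG-6 arrays. The deposited intensity of each probe is a bead mean on a linear scale, exported with GenomeStudio 2011.1 per the submitters' processing notes, with detection p-values and bead standard errors per the file headers. A second deposited table holds intensity values processed by the authors by steps that no source used here describes, and served as an alternative. From the raw intensities, limma 3.58.1 (R 4.3.3) corrected background from the detection p-values, added an offset of 16, quantile-normalised all 24 arrays and took log2. Of 45281 probes, 34885 had 1 gene symbol in the platform annotation and 34862 were matched to RefSeq genes. Probes detected (p under 0.05) on at least 6 arrays were kept (23133) and each gene took its brightest kept probe, giving 12027 genes. In 246 of 4883 genes with several probes, another probe was called the opposite way. A model with 4 group means was fitted to all genes, with empirical Bayes moderation and Benjamini-Hochberg adjustment at 0.05, and 20 residual degrees of freedom. The number of arrays limits the precision. Members and lists were chosen with earlier results of these data known. Genes were named by rule: the hormones, the 15 largest rises and falls, the 10 largest switched genes each way, up to 4 members of each described list and those against its direction, the 8 largest sex differences each way, the genes of largest or most different spread, Wfdc17, Wfdc18, Tceal5 and those with printed sequences. The headers give no chip or slide, and chip effects were not tested. Other normalisations, filters, probe rules, weights and left-out arrays were tried.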

Additional observations from a re-analysis of the deposited data

Results flagged for a closer look

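Of the 179 genes named above, 69 had a genotype difference that differed between males and females by the interaction test (limma, adjusted p under 0.05, 13.6% of all genes). Each number in brackets is the male minus the female difference on the log2 scale. Where the male difference was above 0 and above the female one, the genes were Aif1 (0.70), C1qa (0.57), C1ql2 (2.54), Cd14 (1.28), Cd74 (0.93), Cited1 (1.20), Crtac1 (3.02), Ctsc (0.80), Gal (4.25), Glb1 (0.60), H2-Ab1 (1.33), H2-DMb2 (0.89), H2-Eb1 (1.25), Igfbp4 (0.47), Lrrtm2 (1.33), Ntm (2.22), Omg (1.79), Stbd1 (2.68), Thrb (1.50), Vars (0.64). Where it was above 0 and below the female one, they were Dgkk (-2.01), Gata2 (-1.38), Nsmce1 (-1.69), Nupr1 (-0.61), Ramp1 (-2.26), Rorb (-0.64), Sytl3 (-1.05), Tshb (-0.59). Where the male difference was below 0 and below the female one, they were Actn3 (-1.13), Agtr1a (-1.59), Angptl4 (-1.87), C9 (-1.02), Cacnb4 (-0.87), Ceacam2 (-1.37), Cgnl1 (-0.43), Chac1 (-0.88), Cspg4 (-0.49), Cst11 (-0.59), Drd4 (-2.62), F5 (-0.80), Fkbp5 (-1.28), Fshb (-2.54), Fut2 (-1.46), Gm26588 (-1.67), Hr (-0.91), Il20ra (-0.50), Lhb (-0.65), Nploc4 (-0.66), Olfr47 (-0.79), Slc16a5 (-1.18), Slc45a3 (-1.74), Slc6a11 (-0.96), Spink8 (-2.10), Spint5 (-0.92), Sstr5 (-1.57), Sytl4 (-0.84), Ush1c (-0.88), Usp49 (-0.76), Wfdc1 (-0.71). Where it was below 0 but above the female one, they were Aebp1 (2.71), Angpt1 (1.32), Cryz (2.10), Ecel1 (2.32), Greb1 (2.14), Klk1b21 (0.84), Neurod4 (1.65), Pcsk6 (0.56), Slc5a8 (1.49), Vwde (2.26). The cause was not tested.

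For 29 of the named genes, 1 animal lay apart from the other 5 of its group by Dixon's criterion, which chance meets for about 1 in 20 groups. Numbers in brackets are that animal's log2 signal. Mutant male 2 stood apart for Sel1l (12.04). Mutant male 3 stood apart for Angpt1 (5.43), Atp2a3 (11.84), Cacng5 (10.39), Prl (14.28), Spint5 (5.32), Usp49 (5.21). Mutant male 4 stood apart for Ceacam2 (6.43), Clasrp (9.43), Psmd8 (10.82). Mutant male 5 stood apart for Calr (12.13), Ntm (8.87). Mutant male 6 stood apart for Actn3 (5.03), Glb1 (11.04). Wild-type male 1 stood apart for Brinp1 (9.80). Wild-type male 2 stood apart for Ctsc (7.31). Wild-type male 3 stood apart for Chst9 (4.70). Wild-type male 4 stood apart for C9 (7.51), Hsbp1l1 (9.82), Il20ra (7.98). Wild-type male 6 stood apart for Arc (5.98), Ccl19 (7.56), Cd14 (6.10), Ddost (10.68), Egr3 (9.21), Fosb (8.11), Isl1 (10.31), Sema5a (7.05), Snhg18 (7.16).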

How the results depend on the processing

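The count of genes called in males (6197) lay between 4663 and 6885 under the other normalisations, filters, probe rules and weights, and between 5799 and 6227 when 1 male array was left out. Within the arrays of lower raw signal it was 3337, from fewer arrays. The count called and at least 2-fold (1154) was 499 with the authors' processed values (303 higher, 196 lower) and 680 over genes detected on all 12 male arrays (353 and 327), where fewer genes were tested, and 1129 to 1203 with 1 array left out. With 75th percentile scaling it split into 575 higher and 617 lower, against 629 and 525. The count of genes with different effects in the sexes (1637) was 1331 to 1884 with 1 male array left out, and 75th percentile scaling split it into 958 above and 729 below, against 765 and 872, so that split depends on the scaling. Spread calls (0) stayed at 0 with distances from the group median, where unadjusted p-values under 0.05 fell to 133 and 239 genes, and became 1 with the authors' values and 0 to 7 with 1 array left out. Genes switched on or off (452, 383 on and 69 off) numbered 660 at a detection p under 0.01 (619 and 41), 185 above the highest detection limit, and 461 to 527 with 1 array left out. Dlk1 (-0.19), a rising member of the somatotrope list, Atp6v1e1 (0.027) and Ostc (0.067) changed sign with 75th percentile scaling. Ssr3 (0.40) did so with the mean of its probes and Osbp (0.55) within the arrays of lower raw signal. The cause was not tested. Of the 160 genes named above and called, 11 lost the call somewhere, 10 of them only within arrays of lower or higher raw signal. The other, Serpina3n, lost it under 8 alternatives apart from that split by raw signal, among them leaving out single arrays. Gh gained a call under 8 alternatives, and Fshb and Vwde under 2 each. Genes undetected in a genotype have only a bound. With runs of 4 consecutive title numbers as a block, 6319 genes were called, 1152 at least 2-fold, and 1761 differed between the sexes. The alternatives on raw signal, title numbers and on the highest detection limit were chosen after seeing the data. No paired analysis was possible because the labels carry no replicate numbers shared between the groups, and no chip could be used as a block because the headers give none.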
